A study of Mus musculus with 18 samples.

Results

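The Plagl1, Zrsr1 and Grb10 imprinted control regions were described by their DNA methylation in 18 mouse samples. They were taken as all CpGs in fixed windows of build mm9 that were 5 kb long for Plagl1 and 4 kb for Zrsr1 and Grb10. The first and the last CpG with reads were 12810429 and 12810994 on chromosome 10 for Plagl1, 22871863 and 22874252 on chromosome 11 for Zrsr1, and 11925631 and 11926883 on chromosome 11 for Grb10. The windows held 37, 50 and 73 CpGs with reads in at least 1 library, 160 in all, of 1485218 CpGs in the series. The windows were drawn around blocks of intermediate methylation with the levels of these libraries in view. The levels inside them are therefore given as a description, without a test. There were 4 libraries of female embryonic stem cells (female ESC) and 2 of male ESC. Female induced pluripotent stem cells (iPSC) gave 2 libraries, and 2 each came from female cells labelled positive or negative for the surface antigen SSEA1 (SSEA1+ and SSEA1−), which appears on cells during reprogramming. Mouse embryonic fibroblasts (MEF) gave 4 female and 2 male libraries. The labels give cell type and sex, and no strain, age, passage, transgene or culture condition. Separate cultures or animals behind the libraries of one group are not stated either, so an SD describes how far its libraries lie apart and can be technical in origin. Methylation was read by reduced representation bisulfite sequencing (RRBS), which sequences CpG-rich restriction fragments after bisulfite treatment, so that protected cytosines count as methylated.

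An imprinted control region carries methylation on the chromosome inherited from one parent and lacks it on the other, and the mark is set in the germ line. In cells that keep the imprint, a bulk measurement over both parental copies therefore reads an intermediate level. All of these regions are methylated on the maternal copy in the mouse. Plagl1 (also called Zac1) encodes a zinc finger transcription factor that restrains the cell cycle and is expressed from the paternal copy. Zrsr1 is a retrogene that lies inside the Commd1 gene and is expressed from the paternal copy. Grb10 encodes an adaptor protein that binds the insulin receptor and other tyrosine kinases and restrains growth. In the mouse it is expressed from the maternal copy in most tissues and from the paternal copy in neurons, where transcription starts from promoters near the control region. RRBS of bulk DNA does not assign reads to a parent, and a lower level in fewer cells cannot be told apart from a lower level in every cell.

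The RefSeq promoters of the 3 genes show where the measured CpGs lie, and are printed 5′ to 3′ on the gene's strand with every CpG that carried reads in capitals. The table of promoters is on build GRCm38.p6 and the data on mm9, so each promoter was placed by the spacing of its CpGs. All CpGs in the data within the placed span had to coincide with a CpG of the sequence. For Plagl1 (chr10:13090582-13090881 on GRCm38.p6, plus strand), 11 of 26 CpGs of the sequence were read and no other CpG was seen in the span.
Plagl1: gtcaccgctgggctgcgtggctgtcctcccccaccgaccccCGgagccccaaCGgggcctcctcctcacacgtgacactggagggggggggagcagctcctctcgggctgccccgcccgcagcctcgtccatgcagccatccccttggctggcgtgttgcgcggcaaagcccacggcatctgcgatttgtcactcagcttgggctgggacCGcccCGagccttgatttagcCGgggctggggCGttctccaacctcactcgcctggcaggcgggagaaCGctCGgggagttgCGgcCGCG
For Zrsr1 (chr11:22971755-22972054 on GRCm38.p6, plus strand), 6 of 10 CpGs were read.
Zrsr1: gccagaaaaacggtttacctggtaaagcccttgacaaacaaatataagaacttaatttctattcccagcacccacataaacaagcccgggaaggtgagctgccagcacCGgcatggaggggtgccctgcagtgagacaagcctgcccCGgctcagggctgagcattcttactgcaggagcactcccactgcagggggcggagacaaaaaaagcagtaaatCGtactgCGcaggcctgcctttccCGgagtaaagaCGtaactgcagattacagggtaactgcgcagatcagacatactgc
For Grb10, the promoter that could be placed (chr11:12037371-12037670 on GRCm38.p6, minus strand) lies outside the window, and 28 of its 45 CpGs were read. It is shown because it is an unmethylated promoter of the same gene.
Grb10: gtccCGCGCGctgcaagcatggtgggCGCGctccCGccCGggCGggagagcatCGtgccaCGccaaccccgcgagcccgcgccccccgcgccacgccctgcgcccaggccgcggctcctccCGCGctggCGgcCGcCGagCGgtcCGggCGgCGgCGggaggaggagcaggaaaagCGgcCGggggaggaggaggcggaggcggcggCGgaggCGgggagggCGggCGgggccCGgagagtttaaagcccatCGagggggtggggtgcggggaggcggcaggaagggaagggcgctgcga
A second, CpG-poor Grb10 promoter of the table (chr11:12027922-12028221 on GRCm38.p6, minus strand) could not be placed and is not used here. The distance of the window from that second start is therefore not given.

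The placed promoters put the Plagl1 block on the gene start itself. The 37 Plagl1 CpGs spanned 567 bases, running from -209 to 356 bases relative to the gene start (mm9 12810638), and all but 1 lay within 300 bases of the start. The 50 Zrsr1 CpGs spanned 2391 bases, from -142 to 2247 bases relative to the gene start (mm9 22872005). The 73 Grb10 CpGs spanned 1254 bases and lay inside the gene, 10540 to 11792 bases downstream of the placed promoter's start (mm9 11937423). Exon and intron positions on mm9 are not used here. The hexamer TGCCGC, which the imprint-protecting zinc finger protein ZFP57 binds in its methylated form, was searched on both strands (the other strand reads GCGGCA). It was present once in the Plagl1 promoter, once in the upstream Grb10 promoter and not in the 300 bases of the Zrsr1 promoter, and 11.6% of the 32851 RefSeq promoters in the table hold it. The CpG inside either match carried no reads in the 18 libraries.

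Total read counts over CpGs ran from 11424460 to 62920167 per library. The share of CpGs with reads from the plus and the minus strand separated 3 kinds of library that no label names. It was 9.03 to 11.7% in type A (all ESC, female MEF 1, male MEF 2), 15.2 to 16.05% in type B (all SSEA1+ and SSEA1− libraries, female MEF 2, male MEF 1) and 7.25 to 7.46% in type C (both iPSC libraries, female MEF 3 and 4). Type C libraries read few Plagl1 CpGs: 5 of the 37 reached 5 reads in each of them, against 18 to 37 in the other libraries. Only 3 Plagl1, 5 Zrsr1 and 8 Grb10 CpGs reached 5 reads in all 18 libraries, and these are called shared CpGs. Levels are therefore given first over all CpGs of a window (methylated read counts over all read counts, from 282 to 3983 counts per library and window), and beside them as the mean over shared CpGs. One sequenced fragment counts at each CpG it crosses. The 95% binomial confidence intervals (Wilson) of the levels over all CpGs were 1.16 to 11.3 points wide. They treat counts as independent and cover counting error only.

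In female ESC, the control regions carried almost no methylation, whereas in female MEF they stood at intermediate levels. The Plagl1 level over all CpGs was 0.357, 2.84, 2.06 and 0.660% in female ESC, against 36.6, 37.1, 42.9 and 42.8% in female MEF. The Zrsr1 level was 2.20, 0.533, 1.86 and 2.83% in female ESC, against 40.3, 39.9, 40.8 and 39.8% in female MEF. The Grb10 level was 3.73, 3.86, 1.58 and 6.20% in female ESC, against 44.8, 43.1, 44.6 and 43.8% in female MEF. Over all CpGs, every female ESC library stood below every female MEF library in each window. Over shared CpGs this held at Zrsr1 and Grb10, but at Plagl1 female ESC 3 read 15.8%, against 10.6% in female MEF 1. How many other regions of the genome separate the libraries likewise was not counted, here or in the comparisons below. A lack of overlap is therefore not read as particular to the windows. The differences of the means were -38.4 points for Plagl1, -38.3 for Zrsr1 and -40.2 for Grb10. Over shared CpGs they were -29.6 points (3.94% ± 7.88 and 33.6% ± 15.5), -42.3 (2.15% ± 1.21 and 44.5% ± 2.99) and -47.8 (5.22% ± 4.84 and 53.02% ± 5.70; SD, n = 4 and 4 in each). The Plagl1 value over its 3 shared CpGs shrank to -6.61 points within library type A, which holds all female ESC and 1 female MEF library; over all 37 CpGs the difference within type A was -35.2.

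**Figure D1:**
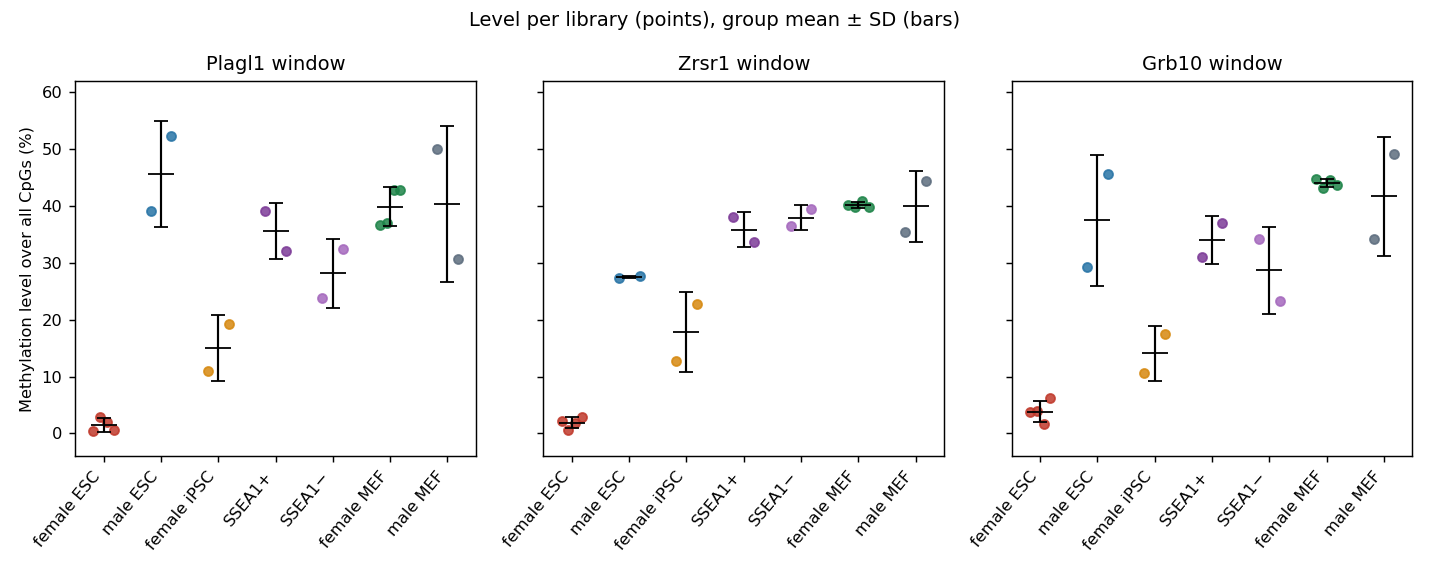
Methylation level over all CpGs of the Plagl1, Zrsr1 and Grb10 windows (vertical axis, %) in each library (points) of 7 groups, with the group mean ± SD as bars. Female ESC lie under 7% in every window, female iPSC between 10.6 and 22.7%, and all other libraries above 23%. The libraries did not all read the same CpGs. Over shared Plagl1 CpGs the means were 14.6% in iPSC and 15.3% in SSEA1+.

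The whole genome was also tested in tiles of 1 kb, and 4 tested tiles lay in the windows: 1 in Plagl1 (12810001 to 12811000), 1 in Zrsr1 (22872001 to 22873000) and 2 in Grb10 (11925001 to 11926000 and 11926001 to 11927000). A tile was called at an adjusted p under 0.05 (quasi-binomial model over all 33545 tiles, Benjamini-Hochberg) and a difference of at least 20 points. All 4 window tiles were called lower in female ESC than in female MEF, where 37.5% of all tiles were called lower and 38.4% in either direction. Since the windows were chosen on their levels, nothing is read from this count. The median difference was -38.7 points over the window tiles and -9.92 points over all tiles.

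Male ESC differed from female ESC in all 3 regions and retained intermediate levels. For Plagl1, all 4 female ESC libraries stood at or below 2.84%, against 39.1 and 52.3% in the male ESC libraries. For Zrsr1, female ESC stood at or below 2.83%, against 27.4 and 27.7% in male ESC. For Grb10, female ESC stood at or below 6.20%, against 29.3 and 45.6% in male ESC. The groups did not overlap in any window. The differences were -44.2, -25.7 and -33.6 points over all CpGs, and -23.9, -23.4 and -42.2 over shared CpGs. All 4 window tiles were called lower in female ESC, against 26.8% of all tiles. The Zrsr1 tile, at -20.5 points, lost its call in a fit without male ESC 1, where the difference was -19.5. Each of the 6 ESC libraries was of type A. Reads on chromosome 11, which holds Zrsr1 and Grb10, made up 6.84 to 7.02% of autosomal reads in female ESC and 6.96 and 7.0% in male ESC, and those on chromosome 10 made up 4.45 to 4.56% in female ESC and 4.71 and 4.75% in male ESC.

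Male ESC resembled male MEF at Plagl1 and Grb10 within a wide spread, and stood lower at Zrsr1. Plagl1 read 39.1 and 52.3% in male ESC, against 50.1 and 30.7% in male MEF, and Grb10 29.3 and 45.6% in male ESC, against 34.3 and 49.1% in male MEF. The groups overlapped in both windows, and the differences of 5.31 and -4.21 points were smaller than the SD of either group. Over the 3 shared CpGs the Plagl1 difference was -6.36 points, but male MEF 1 and 2 read 68.4 and 0% there, and the difference was 27.9 points without male MEF 1 and -40.6 without male MEF 2. Leaving out 1 library also changed the sign over all CpGs, with values from -4.37 to 14.98 points at Plagl1 and from -12.3 to 3.91 at Grb10. Zrsr1 read 27.4 and 27.7% in male ESC, against 35.5 and 44.4% in male MEF, without overlap, a difference of -12.4 points over all CpGs and -7.86 over shared CpGs. Of the 4 window tiles, the Zrsr1 tile was called lower in male ESC (21.9% ± 1.51 and 42.3% ± 10.6; SD, n = 2 and 2), against 18.9% of all tiles (22.7% in either direction). This call was lost with limma and in fits without male ESC 1, male ESC 2 or male MEF 2, where the differences were -21.5, -19.4 and -13.0 points. The male MEF libraries belonged to 2 library types. Over all CpGs, they lay further apart in each window than the 4 female MEF libraries did in any window. Over shared CpGs this did not hold, as at Zrsr1 male MEF read 31.3 and 35.5%, and female MEF 41.3 to 47.5%.

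Female iPSC carried low but measurable levels, between those of female ESC and female MEF. Plagl1 read 11.003 and 19.2%, Zrsr1 12.8 and 22.7%, and Grb10 10.6 and 17.5% in iPSC 1 and 2, against means of 39.9% ± 3.45, 40.2% ± 0.470 and 44.1% ± 0.760 in female MEF (SD, n = 4). Over all CpGs, the iPSC libraries lay below every female MEF library and above every female ESC library in each window. Over shared CpGs they did not at Plagl1, where iPSC 1 and 2 read 8.82 and 20.4%, against 15.8% in female ESC 3 and 10.6% in female MEF 1, nor at Grb10, where iPSC 1 read 10.5%, against 11.3% in female ESC 4. In each window iPSC 2 was the higher of the pair. The Wilson intervals of iPSC 1 and 2 were 7.98 to 15.0% and 15.4 to 23.7% for Plagl1. They were 11.2 to 14.6% and 20.9 to 24.7% for Zrsr1, and 8.95 to 12.6% and 15.3 to 20.1% for Grb10. A fragment counts at each CpG it crosses, so these intervals are too narrow, and nothing is read from their lack of overlap. The differences from female MEF were -24.8, -22.4 and -29.99 points over all CpGs, and -19.0, -23.5 and -37.5 over shared CpGs. Within library type C, with 2 libraries of each group, they were -27.7, -22.6 and -30.1 points over all CpGs. All 4 window tiles were called lower in iPSC, against 23.0% of all tiles (25.6% in either direction). The Grb10 tile at 11926001 lost its call with limma, and the Zrsr1 tile in the fit without iPSC 1, where its difference was -18.1 points.

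The iPSC libraries also read methylation at CpGs that were unmethylated in male cells. At 69817 autosomal CpGs with 10 or more reads and no methylated read in the 4 male libraries, iPSC 1 and 2 read 3.91 and 3.99%, against 0.189 to 1.001% in the other female libraries. The lowest iPSC window level was 10.6%, in iPSC 1 at Grb10. The upstream Grb10 promoter read 6.90 and 5.95% in iPSC. Reads on chromosome 11 were 1.11 and 1.12 times the share of the female MEF libraries of the same type in iPSC 1 and 2, and those on chromosome 10 were 1.0 times. The part of either in the iPSC levels was not tested.

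Over all CpGs, SSEA1+ and SSEA1− cells stood at intermediate levels in all 3 windows. Plagl1 read 39.1 and 32.1% in SSEA1+, against 23.9 and 32.5% in SSEA1− cells. Zrsr1 read 38.1 and 33.7% in SSEA1+, against 36.4 and 39.5% in SSEA1− cells. Grb10 read 31.1 and 37.03% in SSEA1+, against 34.1 and 23.3% in SSEA1− cells. The groups overlapped in each window over all CpGs, and the differences were 7.45, -2.08 and 5.34 points. Over shared CpGs they were -34.0, -4.57 and -14.5 points, so the sign at Plagl1 and Grb10 depended on the CpGs used. The 3 shared Plagl1 CpGs read 6.25 and 24.3% in SSEA1+, against 73.8 and 24.8% in SSEA1− cells. That difference was -9.53 points without SSEA1− 1 and -58.5 without SSEA1− 2. At Zrsr1 the shared CpGs gave -14.4 points without SSEA1+ 1, -12.5 without SSEA1− 2, 5.23 without SSEA1+ 2 and 3.37 without SSEA1− 1, so the sign rested on single libraries. None of the 4 window tiles was called, against 1.31% of all tiles in either direction and 0.793% lower. Over all CpGs, all 12 SSEA1+ and SSEA1− values were below the mean of female MEF. By that measure, each of the 4 libraries stood below every female MEF library at Zrsr1 and at Grb10. Over shared CpGs this did not hold. At Zrsr1, SSEA1− 1 read 43.9%, against 41.3 and 42.6% in female MEF 3 and 4. At Grb10, SSEA1− 2 read 51.5%, against 51.3 and 46.0% in female MEF 2 and 4. All 4 libraries were of type B. Female MEF 2, the female MEF library of that type, read 37.1% at Plagl1, 39.9% at Zrsr1 and 43.1% at Grb10. SSEA1+ 1 had 1.14 times, and SSEA1+ 2 1.06 times, the share of reads on chromosome 11 of that MEF library. SSEA1+ 2 also had 2.33 times the type's median share of reads on chromosome 5, which lowers its share on other chromosomes; chromosome 10 stood at 0.870 times.

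Single CpGs showed the same groups apart. Of CpG values with 5 or more reads, 92.9% at Plagl1, 95.1% at Zrsr1 and 82.4% at Grb10 were under 10% in female ESC, against 5.56, 0.781 and 1.504% in female MEF. Values from 20 to 80% made up 4.46, 0.820 and 3.36% in female ESC, against 75.0, 91.4 and 88.0% in female MEF. In male ESC such values made up 56.8, 61.9 and 57.1%, and in female iPSC 30, 36.2 and 31.3%. In iPSC, values under 10% made up 20, 24.1 and 35.4%. The iPSC shares at Plagl1 rest on only 10 values, against 112 in female ESC and 72 in female MEF. No value of female ESC or iPSC was above 80%. CpGs of a fragment share their reads and are not independent.

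**Figure D2:**
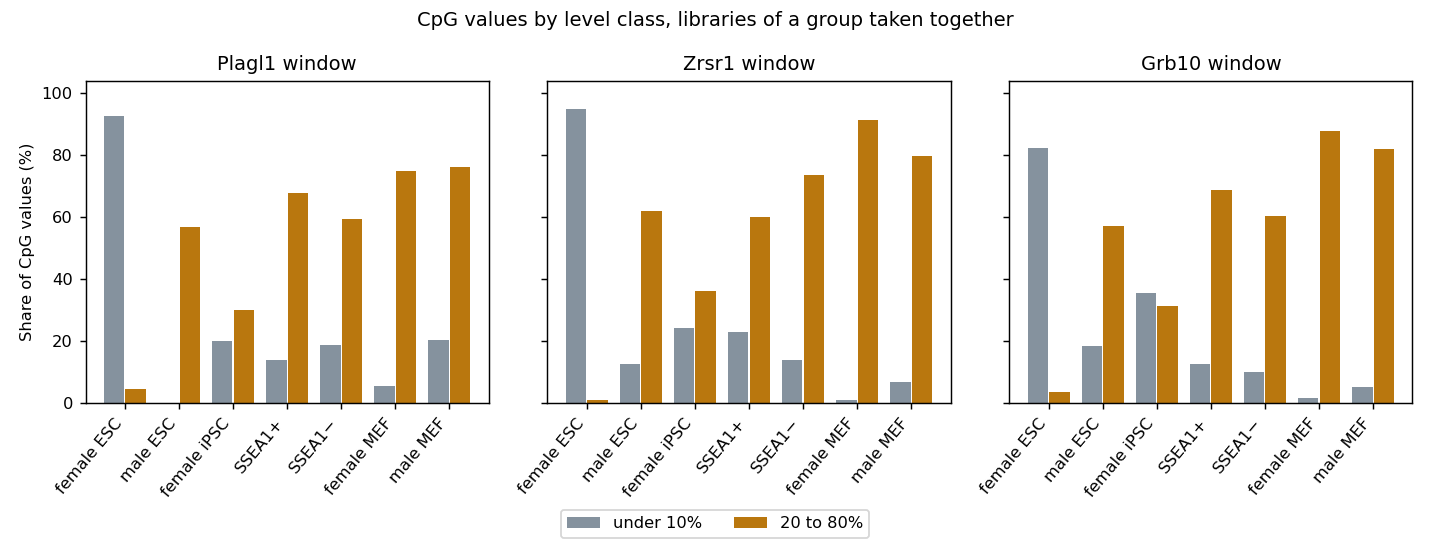
Share of CpG values with 5 or more reads (vertical axis, %) that were under 10% (grey) or from 20 to 80% (brown), for 7 groups in each window, with the libraries of a group pooled. The grey bar is the taller one in female ESC in all 3 windows, and the brown bar in both MEF groups.

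Among shared CpGs, the lowest and the highest by the mean of the 7 group means were compared in each window. In Plagl1 these were 12810619, at 3% in female ESC, 31.6% in male ESC, 12.6% in iPSC and 32.2% in female MEF, and 12810603, at 4.41, 31.4, 14.9 and 34.9% in the same groups. In Zrsr1, CpG 22872264 stood at 0% in female ESC, 23.2% in male ESC, 10.9% in iPSC and 25.4% in female MEF, and CpG 22872010, 5 bases from the gene start, at 0.625, 22.3, 25.5 and 60.9%. In Grb10, CpG 11926883 stood at 0% in female ESC, 28.8% in male ESC, 12.8% in iPSC and 50.1% in female MEF, and CpG 11926188 at 2.94, 61.4, 17.5 and 55.2%. Female ESC were the lowest group at each of these 6 CpGs, which had 5 to 116 reads per library.

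**Figure D3:**
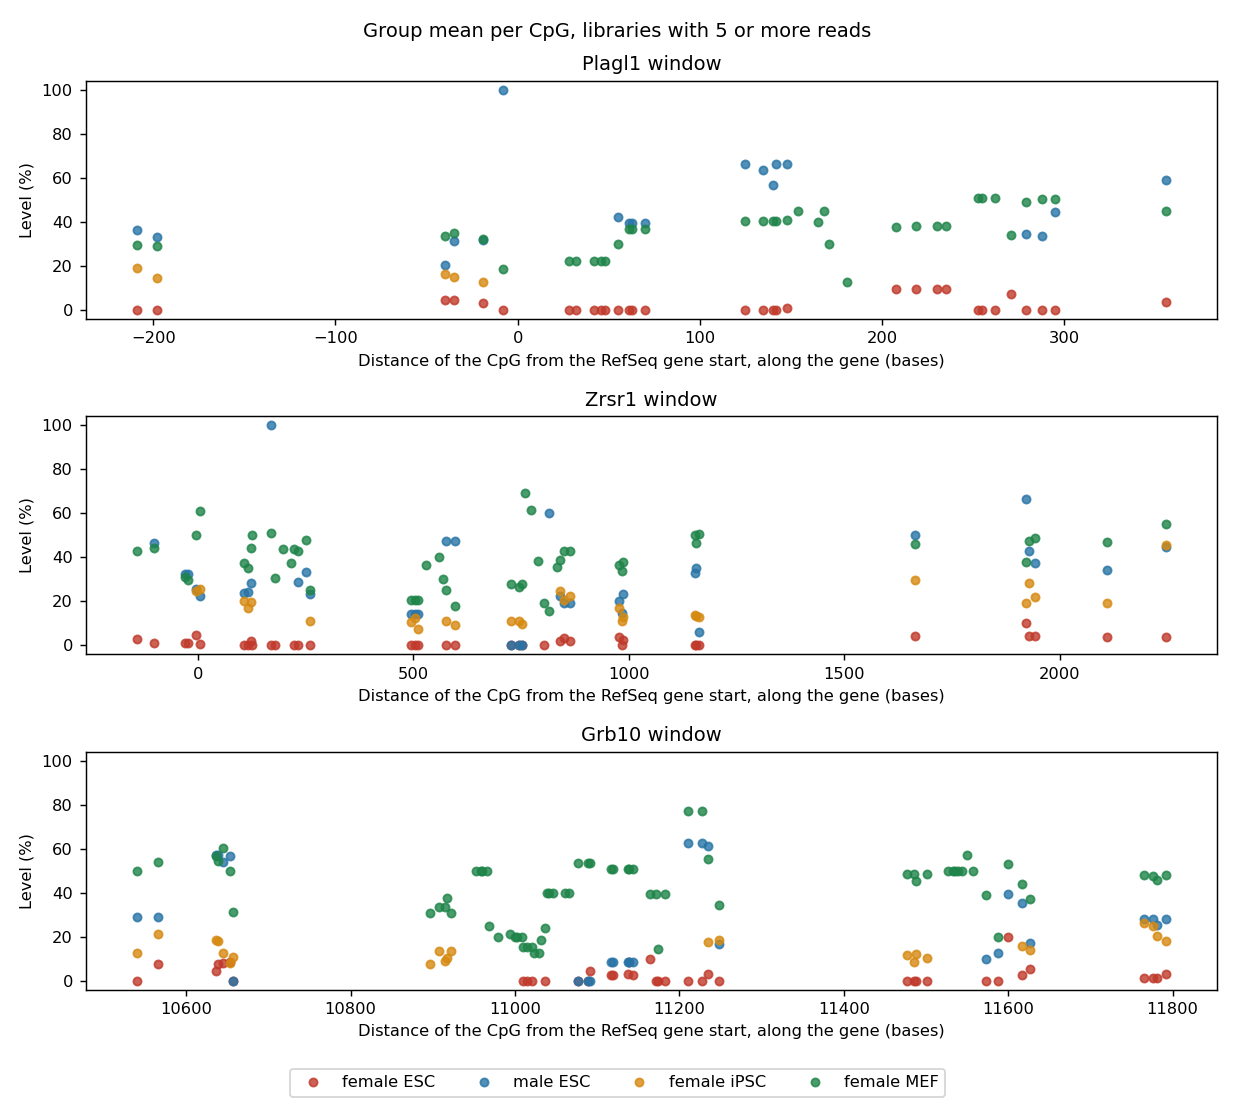
Group mean level (vertical axis, %) of each CpG of the 3 windows in libraries with 5 or more reads, against its distance in bases from the RefSeq gene start along the gene. Female ESC (red) lie at or under 20% at every CpG, iPSC (orange) between 7.40 and 45.4%, and female MEF (green) between 12.5 and 77.1%. Both male ESC points (blue) at 100% rest on 1 library.

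Both strands gave low levels in female ESC. The plus and minus strand of Plagl1 read 1.25% ± 2.50 and 1.26% ± 1.40 in female ESC, against 42.5% ± 3.80 and 37.4% ± 5.28 in female MEF. For Zrsr1 these were 2.14% ± 1.0 and 1.64% ± 1.41 in female ESC, against 42.2% ± 3.67 and 38.7% ± 3.47 in female MEF, and for Grb10 4.09% ± 2.94 and 3.24% ± 3.70, against 47.2% ± 5.61 and 40.1% ± 6.21 (SD, n = 4 in each). Of the CpGs read in a library, only 7.25 to 16.05% had reads from both strands. The strand levels can therefore come from different CpGs, and they do not repeat the same measurement. In male ESC the strands of Grb10 were further apart, at 42.3% ± 12.1 and 25.2% ± 10.6 (SD, n = 2).

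The CpGs of the Plagl1 promoter printed above stood at 1.58% ± 3.17 in female ESC (SD, n = 4), 32.5% ± 12.5 in male ESC (n = 2), 15.3% ± 5.88 in iPSC (n = 2), 11.8% ± 2.87 in SSEA1+ (n = 2), 24.03% ± 7.93 in SSEA1− (n = 2), 30.5% ± 14.9 in female MEF (n = 4) and 23.3% ± 18.1 in male MEF (n = 2). Those of the Zrsr1 promoter stood at 2.25% ± 2.66 in female ESC, 27.8% ± 1.99 in male ESC, 23.5% ± 2.55 in iPSC, 36.9% ± 22.1 in SSEA1+, 40.4% ± 9.92 in SSEA1−, 49.1% ± 11.03 in female MEF and 43.3% ± 4.88 in male MEF. The upstream Grb10 promoter was unmethylated or nearly so in all groups, in contrast to the window inside the gene. It read 0 to 1.89% in female ESC, and 0 of 469 and 0 of 198 counts in male ESC. SSEA1+ and SSEA1− cells read 0 to 1.74%, and MEF of both sexes 0 to 2.28%, with the iPSC values given above. The male ESC counts would allow up to 0.640 and 1.52% (3 counts over the total) if counts were independent. A fragment counts at each CpG it crosses, so the true limits are higher.

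Within 20 kb outside the windows, RRBS reached 5 CpGs around Plagl1, 64 around Zrsr1 and 94 around Grb10, most of them at Zrsr1 and Grb10 in unmethylated stretches. The nearest CpGs with reads lay 9624 and 17241 bases from the Plagl1 block, 14757 and 4079 bases from the Zrsr1 block, and 13704 and 9781 bases from the Grb10 block, so the edges of the blocks were not resolved. Left of Plagl1 (12800501 to 12801000, 2 CpGs), levels were 63.2% in female ESC (3 libraries with 10 or more reads), 42.9% in male ESC (1 library) and 75.0% in female MEF (2 libraries). Right of Plagl1, 3 CpGs at 12828001 to 12828500 were lowest in female ESC, at 3.66%. They read 21.8% in male ESC, 6.78% in iPSC, 34.5% in female MEF and 40.9% in male MEF. SSEA1+ (1 library) and SSEA1− cells read 4.17 and 8.78% there, with 27 and 59 counts over all libraries of each group. The SSEA1− libraries read 2.17 and 15.4%, and the SSEA1+ library with fewer than 10 reads read 33.3%. No contrast with the window is drawn from so few counts. Left of Zrsr1, 1 CpG at 22857001 to 22857500 read 7.69% in female ESC and 0% in male ESC (1 library each). It read 12.9% in iPSC and 59.0% in female MEF. Another at 22856501 to 22857000 read 29.9% in iPSC and 95.3% in female MEF. Right of Zrsr1, 14 CpGs at 22882001 to 22882500 stood at 2.60% in female ESC, 0% in male ESC, 3.54% in iPSC and 0.445% in female MEF. A single CpG at 22889001 to 22889500 stood at 37.2% in female ESC, 83.3% in male ESC, 63.3% in iPSC and 93.7% in female MEF, so female ESC read more methylation there than in the window. Beyond the Grb10 promoter, 3 CpGs at 11938501 to 11939000 stood at 27.8% in female ESC, 60.5% in male ESC, 43.6% in iPSC, 18.6% in female MEF and 11.8% in male MEF. There the ESC groups and the iPSC stood above MEF, unlike in the window.

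The window levels were also set beside the mean level of the autosomes. The mean of the 3 windows was 2.39% ± 0.605 in female ESC (SD, n = 4), 36.9% ± 7.02 in male ESC (n = 2), 15.7% ± 5.90 in iPSC (n = 2), 35.2% ± 1.27 in SSEA1+ (n = 2), 31.6% ± 0.198 in SSEA1− (n = 2), 41.4% ± 1.29 in female MEF (n = 4) and 40.7% ± 1.01 in male MEF (n = 2). The mean autosomal level in the same groups was 33.0, 49.6, 42.7, 49.8, 51.1, 52.2 and 54.0%. The ratio of the window mean to the autosomal level was 0.0723 ± 0.0180 in female ESC, 0.744 ± 0.140 in male ESC, 0.368 ± 0.144 in iPSC, 0.707 ± 0.00812 in SSEA1+, 0.619 ± 0.00624 in SSEA1−, 0.792 ± 0.0113 in female MEF and 0.753 ± 0.0228 in male MEF. The ratio of male ESC thus lay within its SD of that of male MEF. A small SD of the mean or the ratio does not mean that libraries agreed in each window. Male MEF 1 and 2 read 50.1 and 30.7% at Plagl1, but 34.3 and 49.1% at Grb10. SSEA1− 1 and 2 read 23.9 and 32.5% at Plagl1, but 34.1 and 23.3% at Grb10. Such opposite deviations cancel in the mean of the windows. Female ESC had a far smaller share of the female MEF level in the windows than on autosomes, which was not tested because the windows were chosen on their levels. The median over all tiles was 12.7% in female ESC and 30.4% in female MEF, against 2.09 and 41.7% over the 4 window tiles. Of all tiles, 48.4% stood under 10% in female ESC and 43.1% in female MEF.

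**Figure D4:**
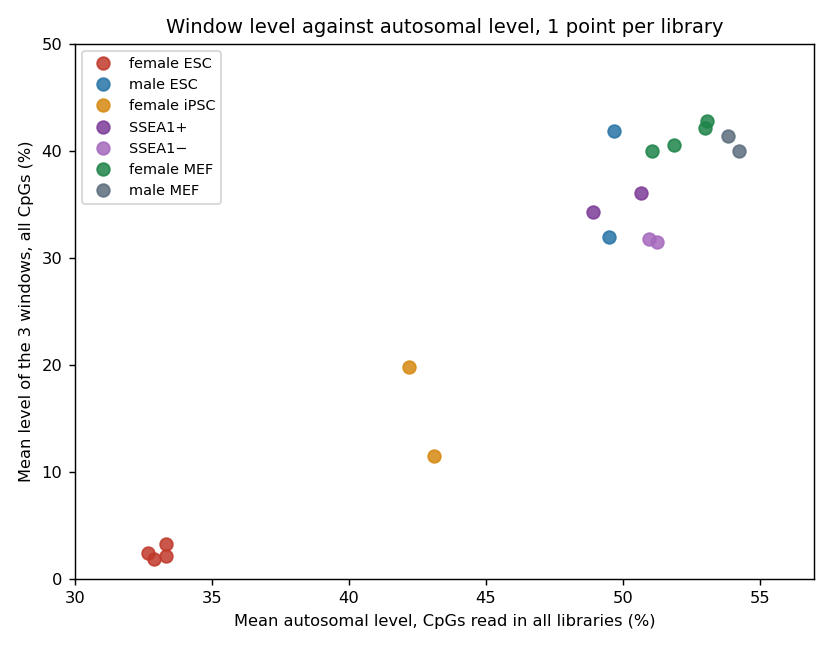
Mean level of the 3 windows over all CpGs (vertical axis, %) against the mean autosomal level over CpGs read in all libraries (horizontal axis, %, starting at 30), with 1 point per library. Female ESC lie at the lower left, iPSC at 42.2 and 43.1% autosomal level with window means of 19.8 and 11.5%, and all other libraries at the upper right, with window means above 31%.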

How the data were processed

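RRBS was read in 18 samples, and each table as deposited by the authors lists cytosines of CpGs with read counts, methylated and total, that carry no normalization. The build is mm9, per the submitters' processing notes; the aligner, methylation caller and any filters were not given in the sources used here, and neither strain differences nor reads that could also map elsewhere (for Zrsr1, to its relative Zrsr2) were examined. Positions are counted from 1. Strand counts of a CpG were added. The window level was computed over all CpGs, and as the unweighted mean over CpGs with 5 or more reads in all 18 samples, the measure named as main in the design; flanks reached 20 kb. The members, windows, lists and tests were chosen with earlier results of these data known, and the level over all CpGs was given a leave-one-out of its own after the levels were seen.

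Tiles of 1 kb with at least 3 CpGs at 5 reads in every sample (33545) were fitted with a quasi-binomial model with 7 group means, the dispersion moderated as in limma's squeezeVar and held at 1 or more, and the model was tested on simulated data. Regions named are the 3 windows, each tested tile inside them, and the shared CpG of lowest and highest level. Flank segments were named after their values were seen. Promoters are RefSeq's on GRCm38.p6, and levels over bins and promoters needed 10 reads per library. Computations used R 4.3.3 with limma 3.58.1, and Python 3.11.15 with scipy 1.17.1, numpy 2.4.6 and pandas 2.3.3.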

Additional observations from a re-analysis of the deposited data

Results flagged for a closer look

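In 2 of the groups of 4 libraries, 1 library stood far from the other 3 in the Plagl1 level over its 3 shared CpGs. In female ESC, library 3 read 15.8% where the other 3 read 0%, a gap that is the whole range (ratio of gap to range 1). In female MEF, library 1 read 10.6%, with a ratio of gap to range of 0.870, above the critical value of Dixon's test for 4 values. Over all CpGs of the window, the same libraries read 2.06% and 36.6% and did not stand apart. The rate of about 1 chance flag in 20 that goes with this value assumes normal values, and 3 libraries at 0% do not meet that. The rule was applied to both groups of 4 in each window, over all and over shared CpGs. The shared CpGs held 59 and 31 read counts in these libraries.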

How the results depend on the processing

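The difference over shared CpGs kept its sign in every alternative for female ESC against female MEF, female against male ESC and iPSC against female MEF in all 3 windows, and for male ESC against male MEF at Zrsr1; the other comparisons changed sign in at least 1. Values that moved by more than the SD, in points, follow; the cause was not tested. Within library type A the differences were for female ESC against female MEF -6.61 (Plagl1), -45.3 (Zrsr1), -54.1 (Grb10). Over each sample's own CpGs the differences were for female against male ESC -44.2 (Plagl1), -26.7 (Zrsr1), -27.2 (Grb10), for SSEA1+ against SSEA1− 3.34 (Plagl1), 5.92 (Grb10), for female ESC against female MEF -37.1 (Zrsr1), -41.2 (Grb10), for iPSC against female MEF -29.6 (Grb10). Over all CpGs, read-weighted the differences were for female against male ESC -44.2 (Plagl1), for SSEA1+ against SSEA1− 7.45 (Plagl1), 5.34 (Grb10), for female ESC against female MEF -38.3 (Zrsr1), -40.2 (Grb10), for male ESC against male MEF -12.4 (Zrsr1), for iPSC against female MEF -29.99 (Grb10). At a minimum of 10 reads per CpG the differences were for SSEA1+ against SSEA1− 4.71 (Plagl1), 8.21 (Grb10), for female ESC against female MEF -52.9 (Zrsr1), -41.4 (Grb10), for male ESC against male MEF -18.1 (Zrsr1), for iPSC against female MEF -30.4 (Zrsr1), -28.4 (Grb10), for female against male ESC -32.6 (Grb10). These values at 10 reads rest on the few CpGs that reached 10 reads in all 18 libraries. They were 1 CpG in Plagl1, 2 in Zrsr1 and 1 in Grb10, so they do not stand for a window. The Plagl1 difference over all CpGs of female ESC against female MEF was -35.2 within library type A. At 10 reads only 12596 tiles could be tested, 3 of them in the windows, and the tiles called were 2054 (main 12896) for female ESC against female MEF, 1302 (main 7618) for male ESC against male MEF, 1455 (main 9006) for female against male ESC, 1482 (main 8584) for iPSC against female MEF, 106 (main 439) for SSEA1+ against SSEA1−, with 2 of 3 window tiles called for female against male ESC. With limma, 287 tiles were called for SSEA1+ against SSEA1−, and 0 window tiles for male ESC against male MEF. Leaving out 1 library at a time, the Plagl1 difference over all CpGs of female against male ESC ran from -50.8 to -37.6, the Zrsr1 difference over shared CpGs of female against male ESC ran from -26.4 to -20.5, the Zrsr1 difference over shared CpGs of iPSC against female MEF ran from -27.7 to -19.2, the Zrsr1 difference over all CpGs of iPSC against female MEF ran from -27.4 to -17.5, the Grb10 difference over shared CpGs of female against male ESC ran from -53.9 to -30.5, the Grb10 difference over all CpGs of female against male ESC ran from -41.8 to -25.5, the Grb10 difference over all CpGs of iPSC against female MEF ran from -33.4 to -26.5, the Plagl1 difference over shared CpGs of male ESC against male MEF ran from -40.6 to 27.9, that of SSEA1+ against SSEA1− from -58.5 to -9.53 and the Zrsr1 one from -14.4 to 5.23, the window tiles called for male ESC against male MEF ran from 0 to 1, the tiles called for SSEA1+ against SSEA1− ran from 213 to 358. The count of 213 was in the fit without SSEA1+ 1. Replicate numbers did not pair samples (same-number correlations of tile deviations -0.0223 to 0.0288); with the replicate number as a block, 12901, 7589, 8732, 8459 and 339 tiles were called in the 5 comparisons, with 4, 1, 4, 4 and 0 window tiles. The depth limits the 3 shared Plagl1 CpGs most, with 23 to 210 read counts per library.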
